A study of Mus musculus with 2 samples.

Results

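The 40 genes described here are known from the endothelium of the liver, the layer of cells that lines its vessels and sinusoids. They were taken by name from a list. The rule for membership used no measured value, but the list was chosen with earlier results of these data known. All 40 were found among the 22380 protein-coding genes of the GENCODE M1 annotation, and the other 22340 genes served as the background. GATA4 occupancy was measured by chromatin immunoprecipitation followed by sequencing (ChIP-seq), in which DNA bound by a protein is pulled down with an antibody against it, here GATA4 C-20. Chromatin came from intact livers of mice of 2 to 3 months by the labels, while the study's methods give slightly higher ages. The mice were on a mixed C57BL/6 x Sv129 background, with no genetic change or treatment named in the labels. DNA that had not been precipitated served as input. The labels give 1 ChIP and 1 input sample. By the study's methods the ChIP sample joins 2 biological replicates, each of 2 mice, and peaks were accepted for both replicates together. No value per replicate exists in the lists, so there is no replicate spread and no test between conditions. Peaks, called occupied sites (OS) below, were listed by the program SPP, by the program MACS2 and as the 4409 SPP peaks that met a MACS2 peak, the common list. An OS was assigned to a gene when its midpoint lay in the gene body or within 10 kb of it. Read depths are not part of these lists, and every deposited score is 1000, so the number of an OS in its list is the only graded value. What that number follows is not stated in the files.

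Endothelial cells form the inner wall of all blood vessels, where they hold the vessel closed through junctions, keep blood from clotting, sense flow and hormones, and let leukocytes pass. In the liver the sinusoidal endothelium is special in having open pores and no continuous basement membrane, and GATA4 is known as a factor that sets this sinusoidal character. GATA factors bind DNA at WGATAR on either strand, where W stands for A or T and R for A or G. The livers were not separated into cell types before precipitation, so occupancy in endothelial cells and in hepatocytes cannot be told apart in these lists. In other experiments the study reported that excising Gata4 in hepatocytes removed GATA4 from the sites it examined in all liver cells. Those sites were at the genes of factor X, FOG1, HNF4α and HNF6, which are not members. The study also listed the member Tspan7 as occupied and raised in hepatocytes after excision. Expression was not measured in the peak lists, so that the name of this group of genes rests on background knowledge.

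Of the 40 endothelial genes, 29 (72.5%, Wilson 95% interval 57.2 to 83.9) had at least 1 GATA4 OS of the common list within 10 kb. Of all other protein-coding genes, 13.5% had one. A single OS was found at 16 of the members, 2 at 11 of them, 3 at Oit3 and 6 at Gpr182, so that 13 members (32.5%, 20.1 to 48) had 2 or more, against 2.95% of the other genes. In all, 47 different OS lay at the members, or 1.07% of the common list, and they were spread over every functional group of the members. In relation to the sequence searched, members held 1.6 OS per 100 kb of gene body and flanks, and the other genes 0.278. The intervals cover counting error alone. Members were picked with earlier results of these data known, and no test over the list is given.

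The OS of 5 members come first in the common list within their functional groups, and their sequences are shown for this reason. Each was read 5′ to 3′ from the plus strand of mm9, with WGATAR or its reverse complement in capitals. The OS of Vwf lies at chr6:125546832-125546945 in intron 10, that of She at chr3:89639400-89639625 in intron 2, that of Icam2 at chr11:106243907-106244121 in intron 1 and that of Oit3 at chr10:58906104-58906346, 1699 bp upstream of the transcription start site (TSS).
Vwf: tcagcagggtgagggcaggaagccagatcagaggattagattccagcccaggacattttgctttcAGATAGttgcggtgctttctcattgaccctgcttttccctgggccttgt
She: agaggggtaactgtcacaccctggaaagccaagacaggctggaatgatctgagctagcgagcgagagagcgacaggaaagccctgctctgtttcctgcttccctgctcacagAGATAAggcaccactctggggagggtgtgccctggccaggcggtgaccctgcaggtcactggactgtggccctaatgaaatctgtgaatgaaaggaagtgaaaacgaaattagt
Icam2: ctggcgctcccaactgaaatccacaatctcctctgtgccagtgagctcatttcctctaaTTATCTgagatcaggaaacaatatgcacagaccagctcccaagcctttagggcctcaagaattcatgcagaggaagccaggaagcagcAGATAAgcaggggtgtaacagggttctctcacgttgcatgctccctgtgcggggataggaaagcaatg
Oit3: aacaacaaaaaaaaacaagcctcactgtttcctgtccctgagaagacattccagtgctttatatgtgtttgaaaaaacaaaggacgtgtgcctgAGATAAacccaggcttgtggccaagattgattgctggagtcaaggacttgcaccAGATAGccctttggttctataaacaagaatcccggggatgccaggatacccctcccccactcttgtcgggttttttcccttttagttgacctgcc

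The fifth, and the earliest of all 47, is OS number 17, which lies upstream of Gpr182 but nearer to the TSS of Rdh1. It is 327 bp wide, of which the 300 bases around the midpoint are shown (chr10:127193172-127193471). It holds no WGATAR, and capitals mark its 5-base matches to WGATA or GATAR.
Gpr182: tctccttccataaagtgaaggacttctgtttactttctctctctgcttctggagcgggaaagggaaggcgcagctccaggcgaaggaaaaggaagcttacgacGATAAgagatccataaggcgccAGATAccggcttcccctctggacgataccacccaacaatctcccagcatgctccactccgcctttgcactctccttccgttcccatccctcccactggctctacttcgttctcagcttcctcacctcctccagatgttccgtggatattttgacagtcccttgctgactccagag

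Junction and adhesion genes were occupied in 7 of 9 cases (77.8%, Wilson 95% interval 45.3 to 93.7). For this and the functional groups below, the share of all other protein-coding genes was 13.5%. Pecam1 encodes CD31, an adhesion molecule at contacts between endothelial cells, and Cdh5 encodes VE-cadherin, the cadherin of these contacts. Pecam1 had 2 OS, numbers 2552 (chr11:106520920-106521000) and 2594 (chr11:106536633-106536777, in intron 14 of its longest transcript). Both lay in the distal part of the gene, 90982 and 75237 bp from its annotated start, and the TSS nearest to number 2552 was that of Tex2. Cdh5 had 1, number 1996 (chr8:106623373-106623536), 2071 bp upstream of its TSS. Cldn5, the claudin of tight junctions, had number 2911 (chr16:18774081-18774234) at a comparable place, 2783 bp upstream. Esam and Icam2, adhesion molecules of the immunoglobulin family, were both occupied in the first intron, by numbers 806 (chr9:37337840-37338058) and 648. In both genes the OS lay close to the start of a shorter transcript, 114 and 81 bp from it, and 2286 and 5375 bp from the annotated start of the gene. Icam1, the inducible ligand of leukocyte integrins, had numbers 3931 and 2005, 13482 and 14933 bp from its TSS and beyond its 3′ end. The former lay in the body of the neighbouring Icam4 and the latter was nearest to the TSS of Icam5, so neither OS can be given to Icam1 alone. Ptprm, a receptor phosphatase that binds to itself across cell contacts, is the longest member at 688.0 kb. Its 2 OS, numbers 2992 and 4393, lay in intron 21 at 638845 and 632773 bp from its TSS, and the nearest TSS was that of 9130404H23Rik. Cd34 and Emcn, which encode sialomucins of the endothelial surface, had none. Their nearest OS were 34052 and 47834 bp away.

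Among genes of clotting and vascular tone, 3 of 6 had an OS (50%, 18.8 to 81.2). Vwf and F8 encode von Willebrand factor and factor VIII, which circulate bound to each other, and both were occupied. Vwf had numbers 3695 (chr6:125533833-125533912) and 1563 in introns 6 and 10, and F8 had number 4229 (chrX:72618159-72618478) in intron 1, 7062 bp from a TSS. Nos3, the endothelial nitric oxide synthase, had number 4397 (chr5:23871365-23871684) in intron 1, 896 bp from its TSS, which is the last of the member OS in the list. Thbd and Procr encode thrombomodulin and the endothelial protein C receptor, which act together in the activation of protein C. Neither had an OS within 10 kb, the nearest being 35464 and 63472 bp away. For Thbd that nearest OS was the one at the promoter of Cd93. Ace, the angiotensin-converting enzyme, had no common OS within 133013 bp. A MACS2 peak without an SPP counterpart (number 4782) had its midpoint at -8406 bp from the TSS.

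Receptors and channels were the group with the highest share, 10 of 11 (90.9%, 62.3 to 98.4). Gpr182, a receptor of sinusoidal endothelium that binds chemokines, had 6 OS, the most of any member, although its gene is only 4.46 kb long. In the order of the plus strand they were numbers 3228, 656, 1527, 2030, 17 and 4210. Number 656 (chr10:127186302-127186532) lay in exon 2, outside the coding sequence, and numbers 1527, 2030 and 17 stood between 3166 and 4533 bp upstream of the TSS. The retinol dehydrogenase genes Rdh1 and Rdh9 share this upstream stretch. Numbers 17 and 4210 were nearer to the TSS of Rdh1 than to that of Gpr182, and number 3228, beyond the 3′ end, was nearer to that of Zbtb39. A single MACS2 peak, number 2696, covered both 1527 and 2030. Calcrl and Ramp2 encode the adrenomedullin receptor and its accessory protein, and both were occupied. Calcrl had numbers 2028 and 1109 in introns 8 and 2, and Ramp2 had number 3520 (chr11:101107994-101108313) in intron 1, 254 bp from the start of an internal transcript and 811 bp from the start of the gene.

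The remaining receptors had 1 or 2 OS each. Lifr, the receptor of leukemia inhibitory factor, which is also made by hepatocytes, had number 279 (chr15:7117244-7117496) in intron 6. Cd93 and Clec14a, related receptors with C-type lectin domains, had numbers 2978 (chr2:148269229-148269548) and 1948 (chr12:59371656-59371739) at 89 and 1452 bp upstream of their TSS. Robo4, a roundabout receptor that stabilizes vessels, had number 4244 (chr9:37208187-37208506) at 1136 bp upstream. Eltd1, an adhesion receptor of vessel sprouting, had number 2692 (chr3:151101393-151101537) in intron 1, 614 bp from its TSS. S1pr1, a receptor of sphingosine 1-phosphate, had number 4222 (chr3:115411955-115412274) beyond its 3′ end. Aqp1, a water channel, had numbers 2053 and 3440, of which the former was the OS closest to the limit of 10 kb, at 9925 bp upstream. Gpr116 alone had none in this group, and its nearest OS, number 1304, was just outside the limit, 10473 bp from the gene.

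Genes of matrix and secreted proteins had an OS in 4 of 6 cases (66.7%, 30.0 to 90.3), and these included the earliest positions after Gpr182. Oit3, a secreted protein of the sinusoidal endothelium, had 3. Numbers 46 (chr10:58904493-58904881) and 45 lay 161 and 1699 bp upstream of its TSS, and number 611 lay in exon 5, in coding sequence. Egfl7, a secreted regulator of vessel formation, had number 216 (chr2:26427441-26427697) at 7965 bp upstream and number 3212 in intron 1, 70 bp from the start of an internal transcript. Tinagl1, a matrix protein, had number 1041 beyond its 3′ end, 694 bp from the gene, and number 2011 at 6951 bp upstream of its TSS. Dnase1l3, a secreted nuclease that clears DNA from the blood, had numbers 3143 and 4271 in introns 1 and 5. Mmrn2, a matrix ligand of Cd93 and Clec14a, had none within 100072 bp, whereas both of its receptors had 1. Sparcl1, a matricellular protein, also had none, with the nearest 57113 bp away.

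Of the 8 intracellular, membrane and nuclear genes, 5 had an OS (62.5%, 30.6 to 86.3). She, an SH2 domain adaptor, had numbers 587 and 2540, both in intron 2. Sox7, a transcription factor of endothelial differentiation, had number 3004 (chr14:64562427-64562544) 26 bp upstream of its TSS, the closest of all member OS to a TSS, and number 2007 beyond its 3′ end. Plvap encodes the protein of the diaphragms that bridge endothelial pores, and its only OS, number 3950 (chr8:74035745-74035836), lay 122 bp upstream. Maf, a transcription factor of sinusoidal endothelium, and Tspan7, a tetraspanin, had numbers 3794 (chr8:118221348-118221667) and 2953 (chrX:10079897-10080031) in intron 1. Rasip1, a Ras-binding protein needed for vessel lumens, had none, nor had Kank3 and Myct1. Their nearest OS lay 21083, 21577 and 23460 bp away.

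**Figure D1:**
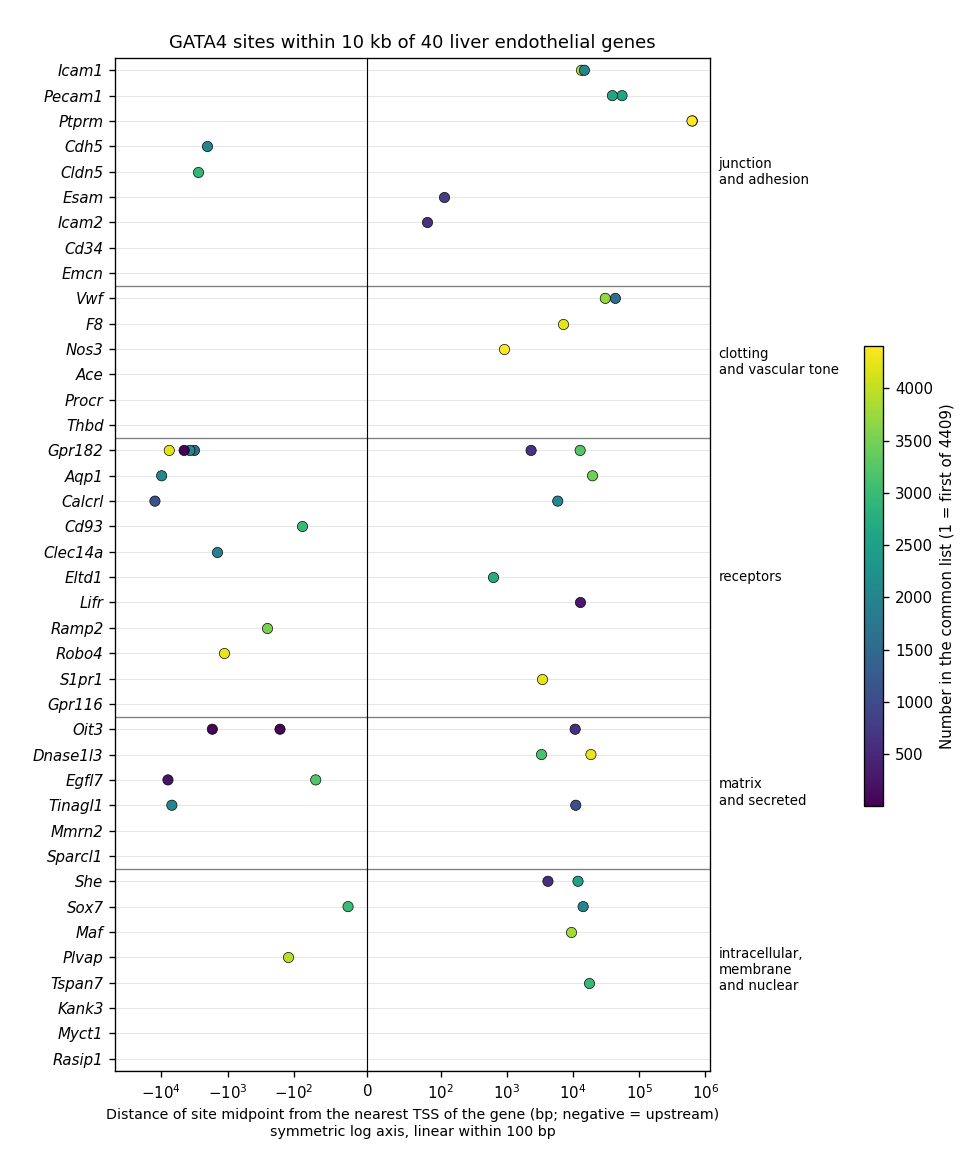
All 47 GATA4 OS at the 40 members, which are in rows grouped by function, plotted by the distance in bp of the midpoint from the nearest TSS of the gene, on a symmetric log axis that is linear within 100 bp. Color gives the number in the common list from 1 to 4409, rows without a point are the 11 members without an OS, and the 6 points of Gpr182 and 3 of Oit3 stand out.

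**Figure D2:**
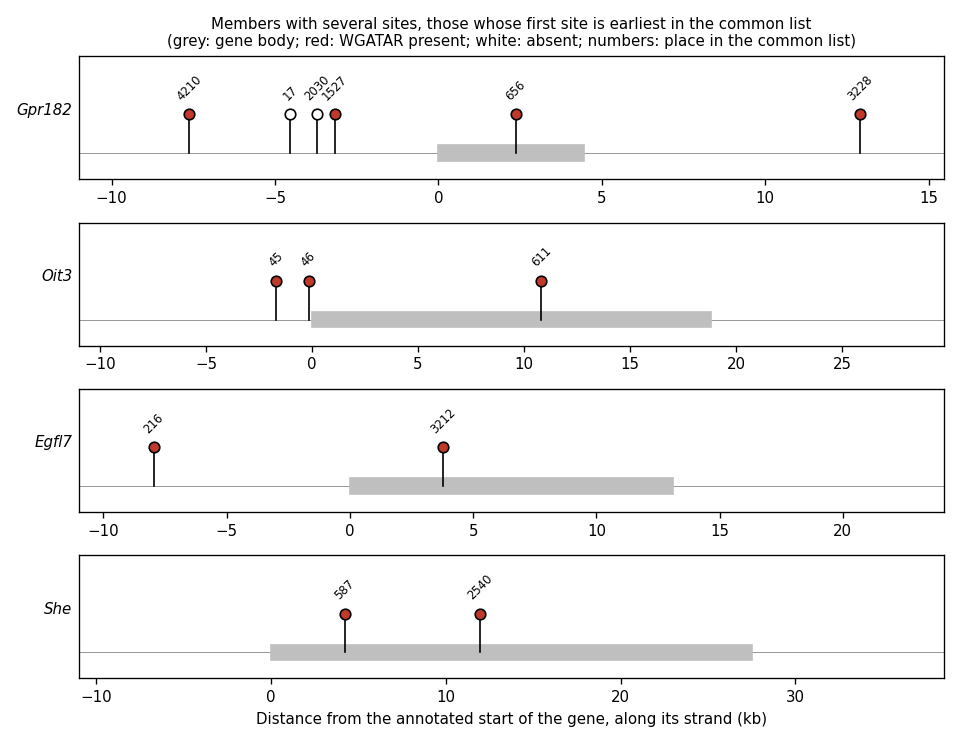
OS at the 4 members with several OS whose first OS was earliest in the common list, by distance from the annotated start of the gene in kb along its strand. Grey boxes are gene bodies, red heads OS with WGATAR, white heads OS without it, and the printed numbers are places in the common list. At Gpr182, numbers 17 and 2030 are the OS without WGATAR.

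Longer genes offer more room for an OS, and shares were therefore also compared within 4 classes of equal size by gene length. The members did not differ much from the background in length, with a median of 16418 bp against 15420 bp. In class 1, with the shortest genes (up to 4684 bp), 4 of 6 members had an OS against 5.26% of the other genes, and in class 2 (up to 15420 bp) 11 of 14 against 11.3%. In class 3 (up to 42445 bp) it was 5 of 9 against 14.3%, and in class 4 9 of 11 against 23.4%. The share of members was thus above that of the other genes in every class.

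Lists of genes of other liver cells were counted in the same way. A further 49 endothelial genes that are not members had an OS in 30 cases (61.2%, Wilson 95% interval 47.2 to 73.6), with 1.87 OS per 100 kb, and the interval overlaps that of the members. Of 50 hepatocyte genes 21 had one (42.0%, 29.4 to 55.8), with 1.09 per 100 kb. This interval ends just below that of the members, which starts at 57.2. In the MACS2 list 26 of the 50 hepatocyte genes had a peak (52.0%), beside 30 of the 40 members (75%, 59.8 to 85.8). No interval was computed for that hepatocyte share. The narrow gap between the intervals in the common list can therefore not be carried over to the MACS2 list, and no separation from hepatocyte genes is claimed. Genes of Kupffer cells, the macrophages of the liver, had an OS in 2 of 20 cases (10%), stellate cell genes in 2 of 24 (8.33%) and bile duct genes in 2 of 15 (13.3%). Genes of the brain endothelium, a vascular bed outside the liver, had one in 1 of 15 cases (6.67%, 1.19 to 29.8). For the Kupffer cell, stellate cell, bile duct and brain endothelial genes, the Wilson interval of each list held the 13.5% of all other protein-coding genes. These lists are short, were written by hand with earlier results known, and were not tested against each other.

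**Figure D3:**
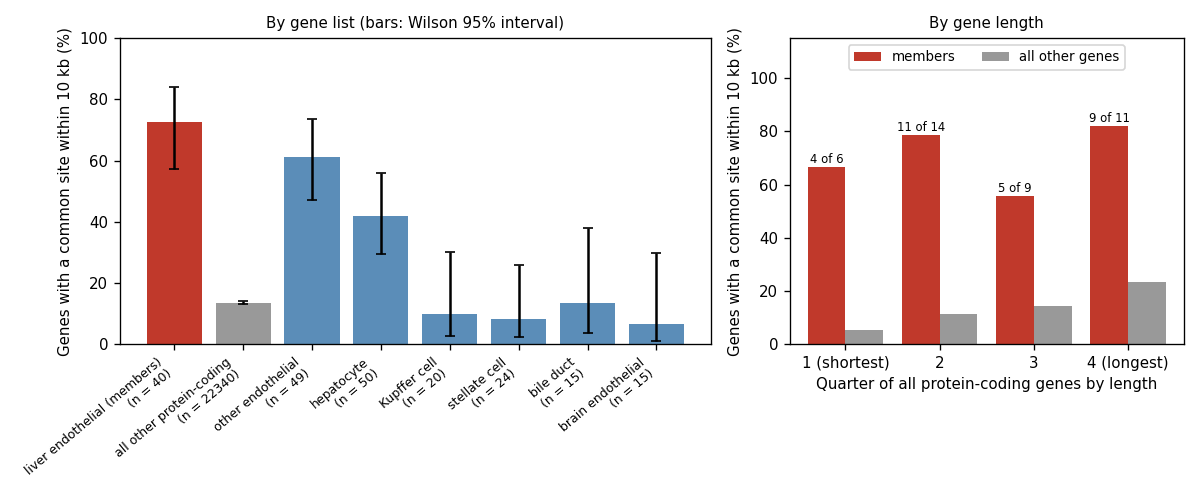
Left, percent of genes with a common OS within 10 kb in the members (red, 72.5%), all other protein-coding genes (grey, 13.5%) and 6 hand-written lists (blue), with Wilson 95% intervals as bars. Right, the same percent for members (red, with counts) and all other genes (grey) in the 4 classes of gene length, where members were above the other genes in each.

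A promoter OS, within 1 kb of a TSS of the gene, was present at 10 of the 40 members (25%, 14.2 to 40.2) and at 3.08% of the other genes. The 10 genes were Cd93, Egfl7, Eltd1, Esam, Icam2, Nos3, Oit3, Plvap, Ramp2 and Sox7. Their promoter OS made up 21.3% (12.0 to 34.9) of the 47 OS, compared with 17.4% of the 4063 pairs of an OS and another gene. Those of Egfl7, Esam and Icam2 lay at an internal TSS, 3780, 2286 and 5375 bp from the annotated start of the gene. With the longest transcript alone, 14.9% of the member OS lay within 1 kb of a TSS. Later introns took 23.4% of the member OS (30.0% of the other pairs), first introns 8.51% (16.3%), exons 4.26% (2.22%), upstream flanks 25.5% (15.9%) and downstream flanks 17% (18.3%). Each of the shares of the other genes lay within the Wilson interval of the members, so the kind of place could not be told from the background with 47 OS. Midpoints at members lay a median of 6951 bp from a TSS of the gene, and 9454 bp at other genes. The nearest protein-coding TSS was that of the member itself for 39 of the 47 OS (83.0%). Another protein-coding gene lay within 10 kb of 18 of them, among them Fundc2 at F8, Cdc45 at Cldn5, Vps25 at Ramp2 and Agpat2 at the promoter OS of Egfl7.

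At the promoters, 8 of the 10 OS held WGATAR, those of Cd93 and Esam being the exceptions. The match closest to the midpoint is shown here with 17 bases on either side, 5′ to 3′ on the strand of the motif, in capitals, so that the motif and its neighbours can be compared between genes. These stretches were picked after the values had been seen. They lie at chr2:26439267-26439306 (minus strand), chr3:151101443-151101482, chr11:106244037-106244076, chr5:23871522-23871561, chr10:58904603-58904642, chr8:74035747-74035786 (minus strand), chr11:101108121-101108160 and chr14:64562463-64562502.
Egfl7: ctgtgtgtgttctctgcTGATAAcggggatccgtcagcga
Eltd1: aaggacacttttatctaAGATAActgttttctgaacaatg
Icam2: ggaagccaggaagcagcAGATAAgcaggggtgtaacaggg
Nos3: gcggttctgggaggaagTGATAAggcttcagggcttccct
Oit3: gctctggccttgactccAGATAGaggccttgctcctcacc
Plvap: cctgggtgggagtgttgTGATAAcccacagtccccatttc
Ramp2: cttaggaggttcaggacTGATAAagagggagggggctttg
Sox7: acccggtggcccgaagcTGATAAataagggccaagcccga

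TGATAA was the word in 5 of these 8, AGATAA in 2 and AGATAG in 1. In the member OS away from promoters the order was the other way, where the match closest to the midpoint was AGATAA in 19 and TGATAA in 7 of the 29 with a match. In all other OS of the list, those near no gene included, the closest match was most often AGATAA, at promoters (219 of 459) as well as elsewhere (1516 of 3159), and it was TGATAA in 24.2% and 28.1%. With 8 OS the difference in words is a description only.

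Across all 47 member OS, 37 held WGATAR (78.7%, Wilson 95% interval 65.1 to 88.0), beside 82.9% (81.8 to 84.0) of the other 4362 OS and 14 of 47 windows (29.8%, 18.7 to 44.0) of equal width 5000 bp to the right of the members' OS. Occupied sequence at the members thus held the motif more often than its neighbourhood and about as often as other OS. A single match was found in 24 of them, 2 in 11 and 3 or more in 2, which were the OS of Eltd1 at its promoter and that of Oit3 in exon 5. Of the 52 matches, 30 read AGATAA, 13 TGATAA, 5 TGATAG and 4 AGATAG. Within 50 bp of the midpoint lay 71.2% of them, and 74.1% of those in other OS. Of the 10 OS without WGATAR, 7 held WGATA or GATAR. The other 3 were number 1996 of Cdh5, number 2030 of Gpr182 and number 4244 of Robo4, none of which held a GATA core followed by A or G or preceded by A or T.

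Sequence words of other factors were counted to see what else the member OS share. The ETS words AGGAAG or CGGAAG, bound by a family that acts in all endothelium, were present in 26 of the 47 OS (55.3%, 41.2 to 68.6), in 48.2% of the other OS and in 29.8% of the windows beside the members (18.7 to 44.0), whose interval overlaps that of the OS. All 3 OS without a GATA word held an ETS word, which are too few to set against the 55.3% of all member OS. CTG followed by GATA after 8 or 9 bases, the joint site of GATA factors with helix-loop-helix proteins such as TAL1, was found in 8 OS (17%, 8.89 to 30.1), in 12.1% of other OS and in 6.38% of the windows. These 8 were OS of Aqp1, F8, Gpr182, Icam1, Nos3, Pecam1, Plvap and She, and since the word contains GATA, it partly overlaps WGATAR. SOX words (ACAAAG, with ACAATG and its variant ending in A) were as frequent in the member OS as in their windows, 36.2% in both. Forkhead words (TGTTTAC or TGTTTGC) were in 14.9%, the AP-1 word TGANTCA in 10.6% and the C/EBP word TTGCNNAA in 8.51%, with 12.1%, 7.52% and 12.7% of the other OS. The windows beside the members held these words in 6.38%, 8.51% and 19.1% of cases, so the C/EBP word was less frequent in the member OS than beside them, with overlapping intervals.

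The liver factors HNF4 (CAAAGTCCA) and HNF1 (GTTAAT) had no word in any of the 47 OS, which allows a share of up to 7.56% by the Wilson interval. These words were in 1.17% and 5.34% of the other OS, and in 0.275% and 6.6% of the windows beside those OS. The HNF1 word was thus no more frequent in the other OS than beside them. In the windows beside the member OS the shares were 0.0% for HNF4 and 2.13% for HNF1. In 500 bp around the midpoints of the member OS the shares were 2.13% for HNF4 and 12.8% for HNF1, so their absence holds for the OS as called only. All words were matched exactly on both strands. Windows beside all other OS held WGATAR in 31.9%, an ETS word in 25.9% and the joint word in 4.13% of cases. The shares in all other OS lay within the intervals of the members for each word, so at this number of OS no word could be shown to differ at the endothelial genes.

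**Figure D4:**
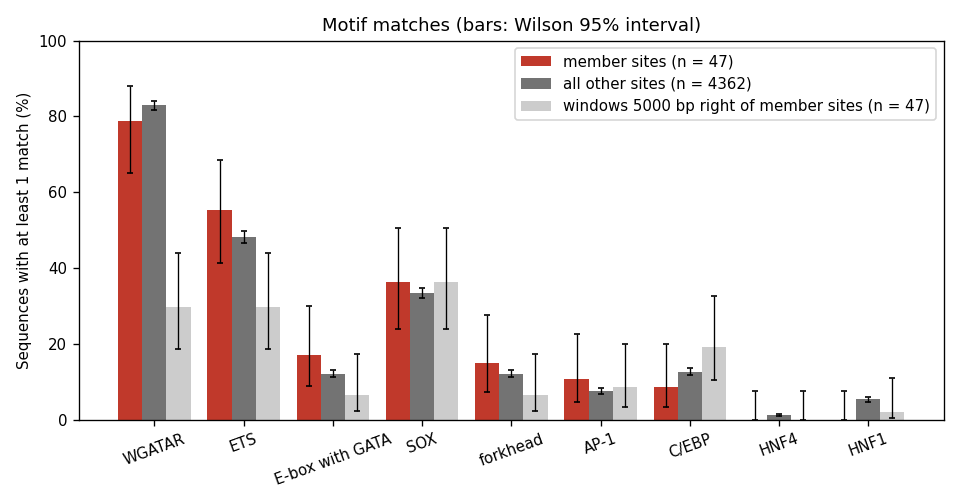
Percent of sequences with at least 1 exact match to each word, in the 47 member OS (red), the 4362 other OS (dark grey) and the 47 windows beside the member OS (light grey), with Wilson 95% intervals as bars. For WGATAR the intervals of member OS and windows do not overlap, for the other words they do, and each dark grey value lies within the interval of the red one.

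The member OS were spread over the whole of the common list. Their numbers ran from 17 to 4397 with a median of 2552, against a median of 2203.5 for all other OS. In 4 successive stretches of about equal length, from the head of the list to its end, 11, 11, 12 and 13 of them were found. In the leading 500 there were 5, those of Gpr182 (17, nearer to the TSS of Rdh1), Oit3 (45 and 46), Egfl7 (216) and Lifr (279). In the MACS2 list the median number was 2669, and 2189.5 for other OS. Member OS covered between 80 and 389 bp, the median being 210.0 bp (190.0 bp for other OS), and a median of 50.9% of their bases were G or C (49.4%).

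**Figure D5:**
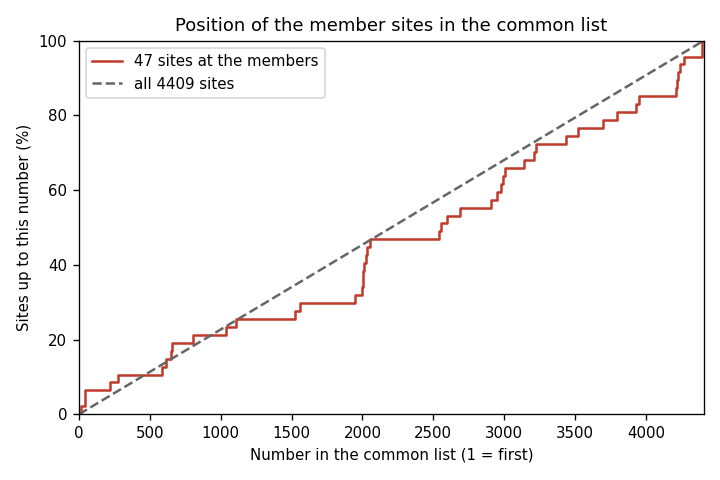
Cumulative percent of the 47 member OS (red steps) by their number in the common list, beside the straight line that all 4409 OS follow. The steps start above the line, with 5 OS by number 279, and lie mostly below it after number 1109, with 11, 11, 12 and 13 OS in 4 successive stretches of the list.

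The other lists of peaks were examined as support. With SPP alone the same number of members, 29, had a peak, since no SPP peak at a member lacked a MACS2 counterpart. In the MACS2 list 30 of 40 members (75%, 59.8 to 85.8) had a peak, beside 17.2% of the other genes, and Ace was the addition. The members held 58 MACS2 peaks, of which 46 met a common OS and 12 met none. These 12 were at Ace, Cdh5, Clec14a, Egfl7, Esam, Nos3, Oit3, Pecam1, Ptprm, She and Tspan7, with 2 at Egfl7. In 4 genes they were at the promoter. At Cdh5 the peak (number 5593, chr8:106625256-106625863) had its midpoint 34 bp from the TSS, at Esam (number 2937) 38 bp, at Nos3 (number 4267) -96 bp and at Clec14a (number 2293) 301 bp. That of Cdh5 held 3 WGATAR words in 608 bp, and that of Esam 2 in 741 bp. The MACS2 peaks over the common OS of these genes held none in 434 bp at Cdh5 and 2 in 719 bp at Esam.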

How the data were processed

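GATA4 ChIP-seq of whole liver is represented by 3 peak lists of 1 ChIP sample, and input DNA entered through peak calling only. Per the labels and the study's methods, the authors aligned reads to mm9 with Bowtie 0.12.7, discarded reads with several placements and ran 2 peak callers, MACS2 2.0.10 and an altered SPP, with thresholds from the irreproducible discovery rate. They then intersected the lists with bedtools 2.16.1. The deposited score is 1000 for every peak and was not used. Unique placement leaves repeated sequence without peaks, and replicates cannot be separated.

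Peak starts, which the tracks count from 0, were shifted to 1-based mm9 positions. The genome (NCBI Build 37) and GENCODE M1 are of the same build. Genes were those of type protein-coding, distances were to the nearest TSS of a protein-coding transcript, and introns were numbered on the longest one. Flanks of 10 kb were used. Words were matched exactly on both strands. Shares carry Wilson 95% intervals, which cover counting error only, and no test was run since 1 merged sample exists. Depth is unknown from the lists. The 40 members, the gene lists and the words were chosen with earlier results of these data known. Of 173 list genes, 171 matched by symbol and 2 by an older symbol. Every member was to be named, with sequences for the OS earliest in each functional group. Alternatives were the flank, gene model, assignment, list, threshold, overlap of lists and stretch scanned. The tools were samtools 1.23.1, matplotlib 3.10.9, pysam 0.24.0 and scipy 1.17.1 under Python 3.11.15, with pandas 2.3.3 and numpy 2.4.6. On made-up data, all 800 interval queries and 4000 word searches were right.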

Additional observations from a re-analysis of the deposited data

How the results depend on the processing

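Of 68 alternative values, 45 stayed within 1.5 times the reported count or within its interval and 23 moved, which the size of the window, list or stretch itself sets in part. The number of members with an OS was 28 within 5 kb (11.2% of the other genes) and 36 within 50 kb, where 75 OS were counted and 27.6% of the other genes had one. With the gene body only it was 18, with 24 OS and 7.61% of the other genes. The leading 2000 OS gave 12 members, 16 OS and 6.61%, and an overlap of SPP and MACS2 of at least 50% of both peaks gave 6 members, 7 OS and 3.31%. The median width was 190.0 bp for common OS and 618.0 bp for MACS2 peaks. An OS of median width therefore fails this overlap even inside a MACS2 peak of median width, and the fall does not measure disagreement between the programs. Giving each OS only to the nearest TSS, up to 50 kb away, gave 29 members, 51 OS and 11.3%. The next 2 settings were chosen after seeing the data. OS within 10 kb whose nearest TSS was that of the gene gave 27 members, 39 OS and 9.75%, and OS with no other protein-coding gene within 10 kb gave 21 members, 29 OS and 7.89%. The share of member OS with WGATAR was 63.8% in the central 100 bp and 89.4% in 500 bp, and 93.6% with WGATA or GATAR. In 500 bp an ETS word was in 78.7%, a SOX word in 59.6% and an HNF1 word in 12.8%. Within 5 kb the genes with an OS were 1 for stellate cells, 1 for bile duct and 0 for brain endothelium, and the MACS2 list gave 4 for stellate cells. The longest transcript alone left 14.9% of member OS within 1 kb of a TSS in place of 21.3%. No paired analysis was possible because both replicates were merged before the peaks were deposited.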

Other observations

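A smaller set of marker genes, written down beside the gene lists, was counted by cell type. Of 8 markers of the sinusoidal endothelium, 7 had a common OS within 10 kb, with 17 OS in all, and Lyve1, a receptor of hyaluronan, was the one without. Of 6 markers of endothelium in general, 5 had an OS, with 7 in all, and Emcn was without. Of 4 hepatocyte markers, Alb and Ttr had an OS, and Apoa1 and Cps1 had none. None of the 3 markers each of Kupffer cells (Clec4f, Vsig4 and Cd5l), stellate cells (Lrat, Reln and Des) and bile duct (Krt19, Krt7 and Epcam) had one. Of all protein-coding genes that are not members 13.5% had one, so none of 3 does not set a cell type apart from that share. The sets overlap the members and the lists above and are too small for a comparison.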
